A study of Rattus norvegicus with 8 samples.

Results

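The genes described here encode the proteasome, the large protease of the cytosol and nucleus that degrades proteins marked with ubiquitin. They were taken as every gene whose symbol is Psma, Psmb, Psmc, Psmd, Psme, Psmf or Psmg followed only by a number and whose mean expected count (estimated reads per gene) over the 8 libraries was 10 or more. Of 47 genes with such a symbol among 17168 in the deposited tables, 46 met that minimum, and the same 46 passed the low-count filter of the test. Psma8 did not meet it. The 46 genes were classed by symbol. They were 7 alpha and 11 beta subunits (18 core genes), and 6 ATPase and 14 non-ATPase genes (20 regulatory genes, Psmc and Psmd). The others were 5 genes for activators and an inhibitor, and 3 Psmg genes for assembly chaperones. Not every regulatory gene need encode a part of the regulatory particle, since the classes rest on symbols. Psmd10, for example, is itself an assembly chaperone.

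RNA had been sequenced from homogenate of the medial prefrontal cortex of male Sprague-Dawley rats. HI rats lay in the upper quartile, and LI rats in the lower quartile, of responses made too early in the 1-CSRT task (a serial reaction time task with a single choice), which measures motor impulsivity. There were 4 HI and 4 LI libraries, called HI1 to HI4 and LI1 to LI4. The labels name no treatment, genotype or age, do not state that every library came from its own animal, and give a homogenate of mixed cells, so fewer cells of a type and less RNA per cell cannot be told apart.

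As background, the proteasome has a barrel-shaped core whose outer rings are built of alpha subunits and whose inner rings are built of beta subunits. Psmb5, Psmb6 and Psmb7 carry the active sites, and interferon can replace them with Psmb8, Psmb9 and Psmb10 to form the immunoproteasome, which favours peptides for presentation on class I molecules. The regulatory particle caps the core, where Psmc ATPases unfold the substrate and Psmd subunits bind and remove ubiquitin. In neurons the proteasome takes part in synaptic protein turnover and plasticity. The transcription factors Nfe2l1 and Nfe2l2 can raise proteasome genes through antioxidant response elements.

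Total counts lay between 7354416 and 9476656 per library. Ribosomal RNA took between 0.406% (HI4) and 25.5% (HI2) of the counts, and HI4 and LI3 (0.418%) held the least. The first principal component of log2 CPM (counts scaled to library size with TMM factors), with 51.7% of the variance, set the same HI4 and LI3 apart at 51.0 and 34.6, while the other libraries lay between -25.9 and 2.05. Each of the 6 excitatory cortical neuron markers was detected in every library, with a summed level of 2937 to 3611 CPM in HI and 2767 to 3244 CPM in LI. The 7 microglial markers summed to 221 to 266 CPM in HI and 282 to 296 CPM in LI. The 6 oligodendrocyte markers summed to 1943 to 2121 CPM in HI and 1665 to 6348 CPM in LI, with LI2 highest, and the 5 striatal markers to 667 CPM in LI2 against 254.7 to 304 CPM elsewhere. The 6 GABA neuron markers summed to 594 to 686 CPM in HI and 673 to 885 CPM in LI, the 6 astrocyte markers to 2814 to 3932 CPM in HI and 2859 to 3970 CPM in LI, and the 4 endothelial markers to 83.5 to 139.7 CPM in HI and 76.6 to 122 CPM in LI. None of these markers was at 0 in any library. The part of these cell types in the proteasome values was not tested.

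Most proteasome genes were abundant, and the immunoproteasome genes were rare. Levels of different genes were compared as CPM per kilobase of effective transcript length, as means over the 8 libraries. On that scale Psmb7, which carries the trypsin-like active site, was highest of the core genes at 148 ± 14.5 (SD, n = 8), and Psmc5, an ATPase, was highest of the regulatory genes at 135 ± 17.1. Psmb5, the chymotrypsin-like subunit, stood at 102 ± 21.8 and Psmb6, the caspase-like subunit, at 91.3 ± 14.2 CPM per kilobase. The immunoproteasome counterparts Psmb8, Psmb9 and Psmb10 stood at 2.46 ± 1.29, 2.43 ± 0.923 and 12.2 ± 3.89 CPM per kilobase. The median level was 73.2 CPM per kilobase over alpha genes, 71.4 over beta genes, 93.7 over ATPases and 58.6 over non-ATPase genes, against 13.3 over all 11631 genes tested.

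The lowest levels belonged to genes that are not constant parts of the complex. Psmb11, the subunit of the thymus form, stood at 1.32 ± 0.597 CPM per kilobase (SD, n = 8), and its expected count was not whole in any of the 8 libraries, so it may rest partly on reads shared with another listed gene. Psmd10, an assembly chaperone of the ATPase ring, was lowest of the regulatory genes at 11.2 ± 1.65 CPM per kilobase. Among activators, Psme3, which forms a nuclear cap, was highest at 69.6 ± 14.3, and Psme1 (27.6 ± 1.71), Psme2 (15.02 ± 2.33) and the large activator Psme4 (9.63 ± 1.82) were lower in mean CPM per kilobase. Expected counts that were not whole in any library also occurred for Psma3, Psmc6, Psmd9, Psme2 and Psme3, whose levels are uncertain in the same way.

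No proteasome gene passed the threshold between HI and LI, and most stood slightly lower in HI. The comparison asks which transcripts differ between rats at the high and low ends of motor impulsivity, and fold changes are log2 HI minus LI from edgeR's quasi-likelihood test, with an adjusted p of 0.1 as the threshold. Of the 46 genes 36 had a log2 fold change below 0, where 51.5% of all 11631 tested genes did, and the median was -0.08 against -0.01 over all tested genes. The fold changes ran from -0.26 for Psme2 to 0.23 for Psme4. Counts of 46 genes past the threshold were 0 in edgeR's test (0% of all tested genes), 0 in limma-voom (0%) and 0 in DESeq2, which gave an adjusted p for 39 of them and for 7794 genes in all, of which it called 0.488%. At an unadjusted p of 0.05 edgeR called 0 of the 46 (4.16% of all tested genes, 3.07% higher and 1.09% lower in HI). The smallest adjusted p over the 46 genes was 1.00 by edgeR's quasi-likelihood test.

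The data bounded the differences of most of these genes. For 37 of the 46 genes the 95% interval of the fold change lay within 1.5-fold in either direction, as for 54% of all tested genes. The 9 others, each with an interval past that bound, were Psma4, Psmb4, Psmb8, Psmb9, Psmb10, Psmb11, Psmd10, Psme2 and Psme4. For Psmb7 the interval of the log2 fold change ran from -0.27 to 0.26, and for Psmb8 from -1.33 to 1.15. Fisher's exact test on counts summed within each group, the test named in the series' design text, called 34 of the 46 genes lower and 1 higher in HI, where it called 44% of all tested genes lower and 12.7% higher. That test takes no account of the spread between libraries and was run without TMM factors, with a median of -0.11 on the log2 scale over all tested genes.

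**Figure D1:**
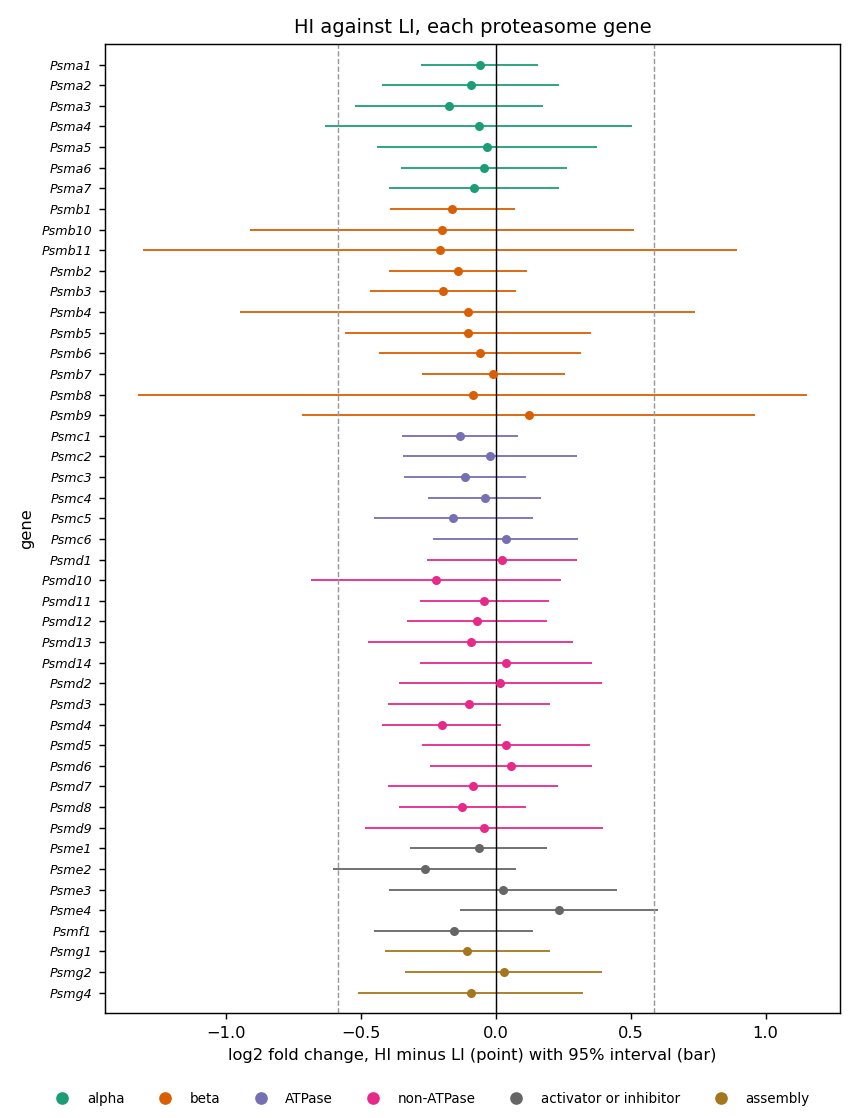
Log2 fold change of each of the 46 proteasome genes, HI minus LI (horizontal axis), as points with the 95% interval as bars, coloured by class and with dashed lines at a 1.5-fold change. The points lie between -0.26 and 0.23 and every bar crosses 0; the widest bars belong to Psmb8 and Psmb11.

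The count of genes lower in HI depended on the libraries used. It was 29 of 46 without HI4, 30 without LI2 and 41 without LI4, and it was 32 when HI4 and LI3 were both left out. The median over the 46 genes was -0.05 without HI4 and -0.05 without HI4 and LI3 together. The score of a library, the mean over the 46 genes of each gene's log2 CPM relative to its own average of the 8 libraries, was -0.19 in HI4 and between -0.01 and 0.02 in the other HI libraries. Among LI libraries the scores were 0.09, 0.08, -0.0042 and 0.0044 over LI1 to LI4. By this score HI4 was the lowest library, and the other HI libraries lay inside the LI range or just below it. The score weighs all genes alike, and in HI4 it holds Psmb8 at -1.91 and Psmb11 at -1.78, from 3 and 5 counts. The summed CPM of the 46 genes was instead lowest in HI1 (3237). HI4 stood at 3382, and the sums ran from 3237 to 3515 in HI and 3392 to 3634 in LI.

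Core and regulatory genes had similar medians. Of 18 core genes 17 were below 0, with a median log2 fold change of -0.09, and of 20 regulatory genes 14 were below 0, with a median of -0.06, beside -0.01 over all tested genes. The difference of the medians, core minus regulatory, was -0.03. On the scale of library scores the same difference was 0.21, 0.12, -0.11 and -0.34 over HI1 to HI4, and 0.20, 0.09, -0.20 and 0.04 over LI1 to LI4. These values ranged widely within each group and the groups overlapped (-0.03 ± 0.24 for HI and 0.03 ± 0.17 for LI, mean ± SD over 4 libraries each). The core median was 0.01 without HI4, the regulatory median was -0.10 without HI3, and the difference of medians was above 0 without HI3 (0.03), HI4 (0.07) or LI1 (0.01).

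Transcript length moved with these values. The core transcripts were short, with a median length of 936 bases (773 to 2534), and the regulatory transcripts were longer, with a median of 1516.5 bases (429 to 3344). In each library the slope of log2 CPM deviation on log2 length was taken over all tested genes. It was -0.01, 0.01, -0.0046 and 0.13 per doubling of length over HI1 to HI4, and -0.08, -0.03, 0.01 and -0.02 over LI1 to LI4. HI4 stood apart from the other HI libraries, and the group means, 0.03 ± 0.07 for HI and -0.03 ± 0.04 for LI (SD over 4 libraries each), gave a two-sided exact permutation p of 0.0857, where the smallest that 4 against 4 libraries allow is 0.0286.

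Short genes had lower fold changes in general, and most proteasome genes were short. In the shortest of 5 length bins (128 to 1366 bases, 2329 genes) the median log2 fold change was -0.09 and 69.0% were below 0, and the 27 proteasome genes in that bin had the same median, -0.09. In the next bin (1366 to 1894 bases) the median over all genes was -0.04 and that of its 9 proteasome genes -0.09. In the third (1894 to 2571 bases) these medians were -0.02 and, over 5 proteasome genes, -0.10, and in the fourth (2571 to 3649 bases) 0.01 and, over 4, 0.02. In the longest bin (3649 to 23517 bases) all genes had a median of 0.09, and the single proteasome gene there, Psme4 with 7277 bases, stood at 0.23. Across the 46 genes the Pearson correlation of fold change with log2 length was 0.45, against 0.21 across the 11631 tested genes, a description over genes that share the same 8 libraries.

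With the linear length trend of each library removed in the fit, the proteasome genes lost most of their offset. That step takes out any difference between HI and LI that runs with length, whatever its source, so it cannot tell why the offset shrank. Then 28 of the 46 were below 0, where 53% of all tested genes were, and their median was -0.02 against -0.01 over all genes. The core median became -0.01 (11 of 18 below 0) and the regulatory median -0.04 (14 of 20 below 0), so that core minus regulatory turned from -0.03 to 0.03. Within the length range that both families share, 773 to 2534 bases, the 18 core genes had a median of -0.09 and the 16 regulatory genes one of -0.08 without any correction. The slopes alone give a core minus regulatory difference of -0.04 in mean log2 fold change, beside -0.03 observed for the means.

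**Figure D2:**
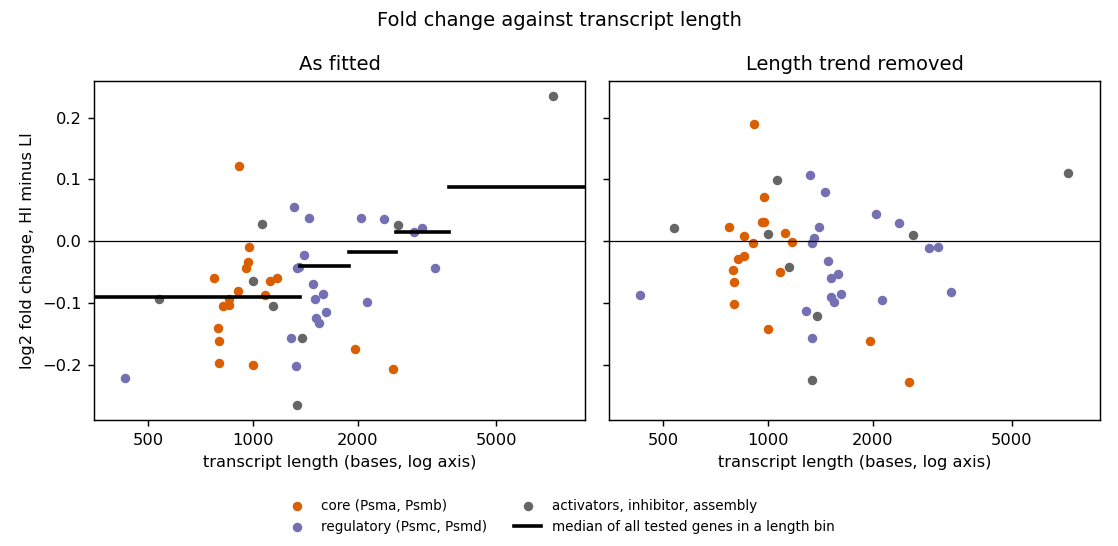
Log2 fold change, HI minus LI (vertical axis), against transcript length in bases (log axis) for the 46 proteasome genes, as fitted (left) and with the length trend removed (right), coloured by family. Black lines on the left are medians of all tested genes in 5 length bins, rising from -0.09 to 0.09; the core genes sit at short lengths and their median moves from -0.09 to -0.01 on the right.

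Alpha subunits, which form the outer rings and the gate of the core, had small fold changes between HI and LI. All 7 had a log2 fold change below 0, from -0.17 to -0.03, and with the length trend removed 3 of the 7 were. Psma1 was among the steadiest genes, at 61.6, 62.3, 66.1 and 65.8 CPM over the HI libraries and 63.4, 62.8, 71.8 and 68.6 CPM over the LI libraries. The groups overlapped, and the log2 fold change was -0.06 ± 0.10 (SE). Psma2 had CPM of 50.1, 49.8, 53.4 and 71.7 over the HI libraries and of 55.3, 57.2, 70.1 and 57.7 over the LI libraries, a log2 fold change of -0.09 ± 0.15. HI4 and LI3 were each well above the others of their group.

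Psma3 measured 43.0, 38.7, 54.7 and 56.3 CPM across HI1 to HI4 and 59.7, 44.4, 59.0 and 54.6 CPM across LI1 to LI4 (log2 fold change -0.17 ± 0.16, SE), with overlapping groups. Its counts, not whole in any library, may be shared with Psma3l, a gene of like symbol named here after its values were seen, which averaged 32.2 ± 7.46 CPM over HI and 27.3 ± 9.24 CPM over LI libraries (SD, n = 4 each) and whose log2 fold change was 0.24 ± 0.24 (SE). Summed, Psma3 and Psma3l averaged 80.4 ± 15.1 CPM over HI and 81.7 ± 12.6 CPM over LI libraries (SD, n = 4 each). The value of Psma3 alone is uncertain to that extent.

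The beta subunits with active sites overlapped between HI and LI. Psmb5 had CPM of 86.2, 96.4, 74.2 and 55.4 over the HI libraries and of 99.2, 102, 66.0 and 68.5 over the LI libraries, a log2 fold change of -0.10 ± 0.20 (SE). Psmb6 measured 62.9, 73.2, 76.3 and 43.4 CPM across HI1 to HI4 and 67.5, 71.3, 61.4 and 66.5 CPM across LI1 to LI4, a log2 fold change of -0.06 ± 0.17. HI4 was lowest and LI3 next lowest in both genes. Psmb7 had CPM of 121, 122, 153 and 143 over the HI libraries and of 135, 121, 152 and 135 over the LI libraries, a log2 fold change of -0.01 ± 0.12. In Psmb7, by contrast, HI4 and LI3 were among the 3 highest libraries.

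Among the structural beta subunits, Psmb1 measured 81.8, 85.5, 79.2 and 75.5 CPM across HI1 to HI4 and 96.4, 97.0, 84.1 and 82.4 CPM across LI1 to LI4 (log2 fold change -0.16 ± 0.10, SE). Psmb3 had CPM of 42.3, 46.3, 38.8 and 39.4 over the HI libraries and of 48.8, 55.0, 43.8 and 43.5 over the LI libraries (-0.20 ± 0.12). In both genes LI1 and LI2 were the highest libraries, and the other LI libraries overlapped with HI. Psmb2 averaged 49.9 ± 5.04 CPM over HI and 55.0 ± 4.03 CPM over LI libraries (SD, n = 4 each), and its log2 fold change was -0.14 ± 0.11 (SE). With the length trend removed Psmb1, Psmb2 and Psmb3 stood at -0.07, -0.05 and -0.10 on the log2 scale.

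The immunoproteasome genes were low in both groups and varied far more between libraries than between groups. Psmb8 measured 4.65, 3.14, 1.59 and 0.399 CPM across HI1 to HI4, the last from 3 counts, and 2.71, 3.28, 1.40 and 3.04 CPM across LI1 to LI4, a log2 fold change of -0.09 ± 0.56 (SE). Psmb9 had CPM of 3.72, 1.98, 1.49 and 1.46 over the HI libraries and of 2.60, 2.02, 1.28 and 2.09 over the LI libraries (0.12 ± 0.38). HI1 was highest in both, and the other HI libraries lay inside or below the LI range.

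Psmb10 measured 13.3, 14.4, 9.77 and 5.46 CPM across HI1 to HI4 and 15.6, 13.8, 7.15 and 12.7 CPM across LI1 to LI4 (-0.20 ± 0.32). HI4 and LI3 were again the lowest of their groups. Summed per kilobase, these 3 genes made up 6.55%, 5.47%, 3.59% and 2.68% of the 6 active-site genes over HI1 to HI4, and 5.73%, 5.31%, 3.02% and 5.46% over LI1 to LI4. This share overlapped between HI and LI (4.57% ± 1.76 against 4.88% ± 1.25, SD, n = 4 each). The microglial marker sum did not overlap (246 ± 18.8 against 289 ± 7.79 CPM). Of the 7 microglial markers, 2 had all HI below all LI, a pattern of 1.14% of all tested genes. A link between the share and the marker sum was not tested.

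Promoters of subunits are shown because the same motifs are known to tie these genes to Nfe2l1, Nfe2l2 and interferon. RefSeq promoters of build GRCr8, 250 bases before to 50 after the transcript start, were matched by symbol for 41 of the 46 genes. The antioxidant response element core TGACNNNGC, searched on both strands, was present in 8 of the 41 (19.5%), against 12.1% of all 33469 promoters in the table. The CCAAT box, bound by NF-Y, was in 20 of 41 (48.8%) against 37.5% of all, with 11 of 16 core and 7 of 17 regulatory promoters. The interferon-stimulated response element, searched as GAAA, any 2 bases and GAAA, was in 7 of 41 (17.1%) against 3.92% of all, the 7 being Psma4, Psmb3, Psmb8, Psmb10, Psmd7, Psme2 and Psmg4. Of 48 matches in these promoters 1 pair of different motifs overlapped. A match describes letters, not a bound site.

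Capitals below mark TGACNNNGC on either strand in the 4 genes with the smallest p among those described by value that hold it, each read 5′ to 3′ on the gene's strand.
Psme4 promoter, chr14:108706393-108706692, plus strand: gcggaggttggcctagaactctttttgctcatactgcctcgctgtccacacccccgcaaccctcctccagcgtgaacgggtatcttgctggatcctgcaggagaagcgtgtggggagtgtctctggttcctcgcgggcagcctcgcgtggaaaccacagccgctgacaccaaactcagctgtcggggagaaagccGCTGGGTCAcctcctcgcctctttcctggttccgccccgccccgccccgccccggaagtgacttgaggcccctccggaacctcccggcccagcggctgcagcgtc
Psmb2 promoter, chr5:144254808-144255107, plus strand: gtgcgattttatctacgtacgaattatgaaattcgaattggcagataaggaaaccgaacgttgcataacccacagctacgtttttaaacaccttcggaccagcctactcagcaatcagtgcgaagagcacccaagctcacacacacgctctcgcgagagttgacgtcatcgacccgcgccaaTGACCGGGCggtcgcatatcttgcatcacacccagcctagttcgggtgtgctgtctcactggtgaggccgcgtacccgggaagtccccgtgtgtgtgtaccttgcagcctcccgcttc
Psma3 promoter, chr6:95219499-95219798, plus strand: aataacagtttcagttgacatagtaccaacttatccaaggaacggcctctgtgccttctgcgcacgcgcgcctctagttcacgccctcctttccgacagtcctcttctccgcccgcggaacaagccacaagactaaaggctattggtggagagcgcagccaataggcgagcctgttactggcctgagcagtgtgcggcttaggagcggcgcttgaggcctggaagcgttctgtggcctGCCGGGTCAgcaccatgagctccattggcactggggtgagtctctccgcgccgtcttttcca
Psmb5 promoter, chr15:32047330-32047629, minus strand: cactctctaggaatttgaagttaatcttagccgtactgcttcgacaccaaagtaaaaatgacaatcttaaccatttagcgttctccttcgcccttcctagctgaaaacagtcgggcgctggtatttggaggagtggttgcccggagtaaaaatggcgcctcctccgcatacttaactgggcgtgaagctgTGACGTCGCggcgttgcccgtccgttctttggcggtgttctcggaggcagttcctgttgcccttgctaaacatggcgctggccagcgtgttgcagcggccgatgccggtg
The match began 60 bases before the start in Psmb5, 68 in Psmb2, 55 in Psme4 and 12 in Psma3, as counted to its first base on the printed strand.

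Capitals in the next pair mark the interferon-stimulated response element on either strand in the immunoproteasome genes that hold it, chosen after the matches were seen.
Psmb8 promoter, chr20:4656982-4657281, minus strand: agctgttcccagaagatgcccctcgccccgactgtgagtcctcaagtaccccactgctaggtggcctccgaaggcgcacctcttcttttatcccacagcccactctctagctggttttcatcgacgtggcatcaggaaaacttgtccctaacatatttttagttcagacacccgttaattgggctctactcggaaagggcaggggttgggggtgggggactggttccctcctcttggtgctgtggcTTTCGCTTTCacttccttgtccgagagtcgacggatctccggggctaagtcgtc
Psmb10 promoter, chr19:50743243-50743542, minus strand: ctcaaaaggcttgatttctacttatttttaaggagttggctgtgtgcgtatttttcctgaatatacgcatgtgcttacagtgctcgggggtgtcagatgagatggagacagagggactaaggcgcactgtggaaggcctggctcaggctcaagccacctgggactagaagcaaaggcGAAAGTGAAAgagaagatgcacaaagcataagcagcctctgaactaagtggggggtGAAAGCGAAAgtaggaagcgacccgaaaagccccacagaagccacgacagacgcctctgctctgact
Psmb8 held 1 match, on the opposite strand, beginning 4 bases before the start, and Psmb10 held 2, beginning 73 and 17 bases before it.

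**Figure D3:**
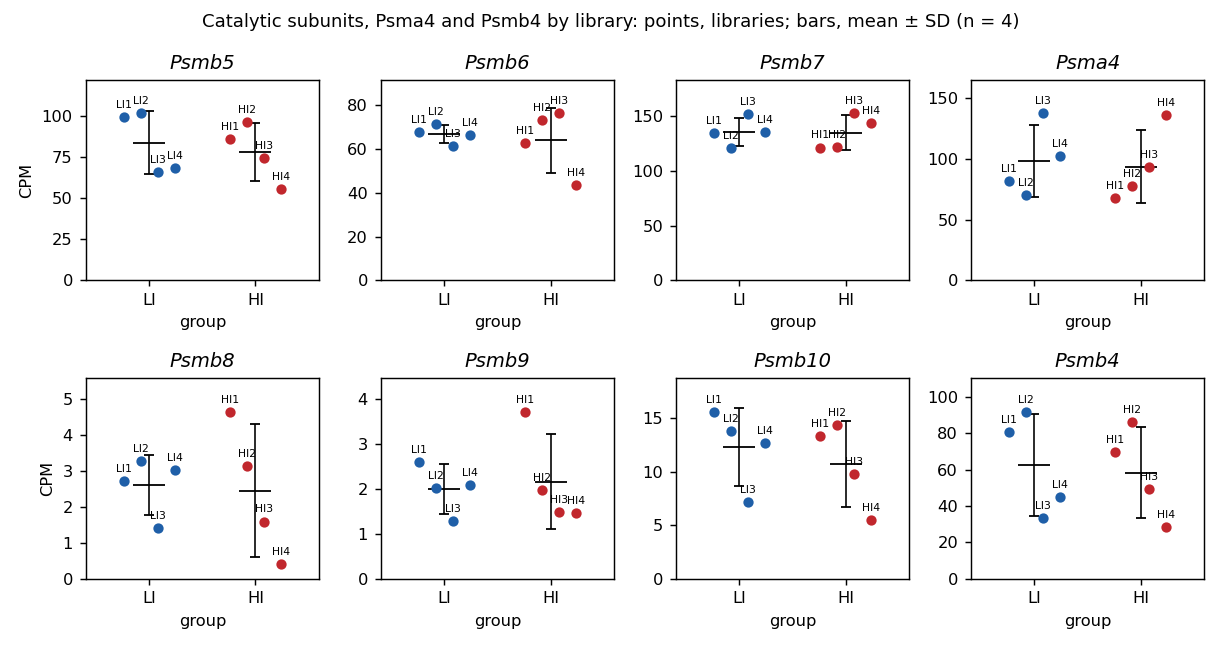
CPM (vertical axis, from 0) in LI (blue) and HI (red) libraries for the constitutive active-site genes Psmb5, Psmb6 and Psmb7, their counterparts Psmb8, Psmb9 and Psmb10, and Psma4 and Psmb4, with mean ± SD (n = 4) as bars. The groups overlap in every panel, and HI4 and LI3 are at the top for Psma4 (135 and 137 CPM) and at the bottom for Psmb4 (28.6 and 33.3 CPM).

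The ATPases of the regulatory base unfold substrates and open the core gate. Gene by gene they were the steadiest class, with a median within-group SD of log2 CPM of 0.13. By the library score of each class they were not, with a pooled within-group SD of 0.075 against 0.055 for alpha and 0.065 for non-ATPase genes. Of 6 ATPase genes 5 were below 0, with a median log2 fold change of -0.08, and with the length trend removed 3 were, with a median of -0.04. Psmc1 had CPM of 145, 159, 175 and 157 over the HI libraries and of 180.3, 167, 178 and 171 over the LI libraries (-0.13 ± 0.10, SE). HI1, HI2 and HI4 lay below the LI range and HI3 inside it. Psmc5 measured 162, 176, 168 and 123 CPM across HI1 to HI4 and 198, 174, 157 and 171 CPM across LI1 to LI4 (-0.16 ± 0.13), and Psmc3 averaged 141 ± 13.5 CPM over HI and 152 ± 5.70 CPM over LI libraries (SD, n = 4 each, log2 fold change -0.12 ± 0.10, SE). The groups overlapped in both.

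Psmd4, a ubiquitin receptor of the regulatory particle, had the smallest unadjusted p of the 46 genes (0.0705 by edgeR's quasi-likelihood test). It stood at 78.0, 90.8, 84.4 and 74.4 CPM over HI1 to HI4, and 94.3, 93.1, 93.2 and 95.9 CPM over LI1 to LI4. Its log2 fold change was -0.20 ± 0.10 (SE), and -0.16 ± 0.10 with the length trend removed. Psmd4 was the 1 gene of the 46 in which all HI libraries lay below all LI libraries, a pattern of 1.14% of all tested genes, and 0 of the 46 had all HI above all LI (2.31%). Its LI values were close together, with an SD of 1.32 CPM against 7.22 CPM in HI.

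The other non-ATPase genes overlapped between the groups. Psmd8, a lid subunit, averaged 82.5 ± 8.35 CPM over HI and 89.9 ± 3.88 CPM over LI libraries (SD, n = 4 each), and its log2 fold change was -0.12 ± 0.11 (SE). Psmd10 had the largest negative fold change of the regulatory genes at -0.22 ± 0.21, from 4.14, 3.64, 4.25 and 3.33 CPM over HI1 to HI4, and 3.85, 4.29, 5.36 and 4.50 CPM over LI1 to LI4. Its transcript of 429 bases was the shortest of the 46, and with the length trend removed the value was -0.09. Psmd6, another lid subunit, had the largest positive fold change of the regulatory genes at 0.06 ± 0.13, from 102 ± 12.3 CPM over HI and 98.4 ± 14.5 CPM over LI libraries. Of the 14 non-ATPase genes 9 were below 0, with a median of -0.06, and 11 were after the length correction, with a median of -0.04.

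Activators stood at both ends of the range. Psme2, which pairs with Psme1 in an interferon-inducible cap that admits peptides without ubiquitin, had CPM of 21.4, 17.2, 16.6 and 14.8 over the HI libraries and of 20.7, 22.5, 18.1 and 22.8 over the LI libraries, a log2 fold change of -0.26 ± 0.15 (SE). HI1 lay inside the LI range and the other HI libraries below it. Its partner Psme1 averaged 25.5 ± 1.30 CPM over HI and 26.6 ± 1.86 CPM over LI libraries (SD, n = 4 each), and its log2 fold change was -0.06 ± 0.11. With the length trend removed Psme2 stood at -0.22 ± 0.13 and Psme1 at 0.01 ± 0.13.

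Psme4, a large single-chain cap, measured 68.9, 77.2, 59.6 and 94.9 CPM across HI1 to HI4 and 66.5, 60.3, 75.7 and 52.9 CPM across LI1 to LI4, a log2 fold change of 0.23 ± 0.17 (SE). HI2 and HI4 lay above the LI range and HI1 and HI3 inside it, and with the length trend removed the value was 0.11 ± 0.15. Psmf1, an inhibitor of the core in vitro, averaged 41.6 ± 4.00 CPM over HI and 46.5 ± 6.39 CPM over LI libraries (SD, n = 4 each), and its log2 fold change was -0.16 ± 0.13. The chaperones that assemble the alpha ring had small differences, with Psmg1 at -0.11 ± 0.14, Psmg4 at -0.09 ± 0.19 and Psmg2 at 0.03 ± 0.16 on the log2 scale (SE).

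HI4 and LI3 stood at opposite extremes in different proteasome genes, as they also did across all tested genes. HI4 and LI3 were the 2 highest libraries in 11 of the 46 genes (19.9% of all tested genes) and the 2 lowest in 16 (22.3%). Psma4 and Psmb4, named after their values were seen, show both directions. Psma4, an alpha subunit, had CPM of 67.4, 77.4, 93.5 and 135 over the HI libraries and of 81.5, 69.9, 137 and 102 over the LI libraries. Psmb4, a beta subunit, measured 69.6, 86.0, 49.2 and 28.6 CPM across HI1 to HI4 and 80.4, 91.9, 33.3 and 44.9 CPM across LI1 to LI4. The same libraries were thus highest for Psma4 and lowest for Psmb4, in HI and LI alike, and the log2 fold changes between groups were -0.06 ± 0.26 and -0.10 ± 0.38 (SE).

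**Figure D4:**
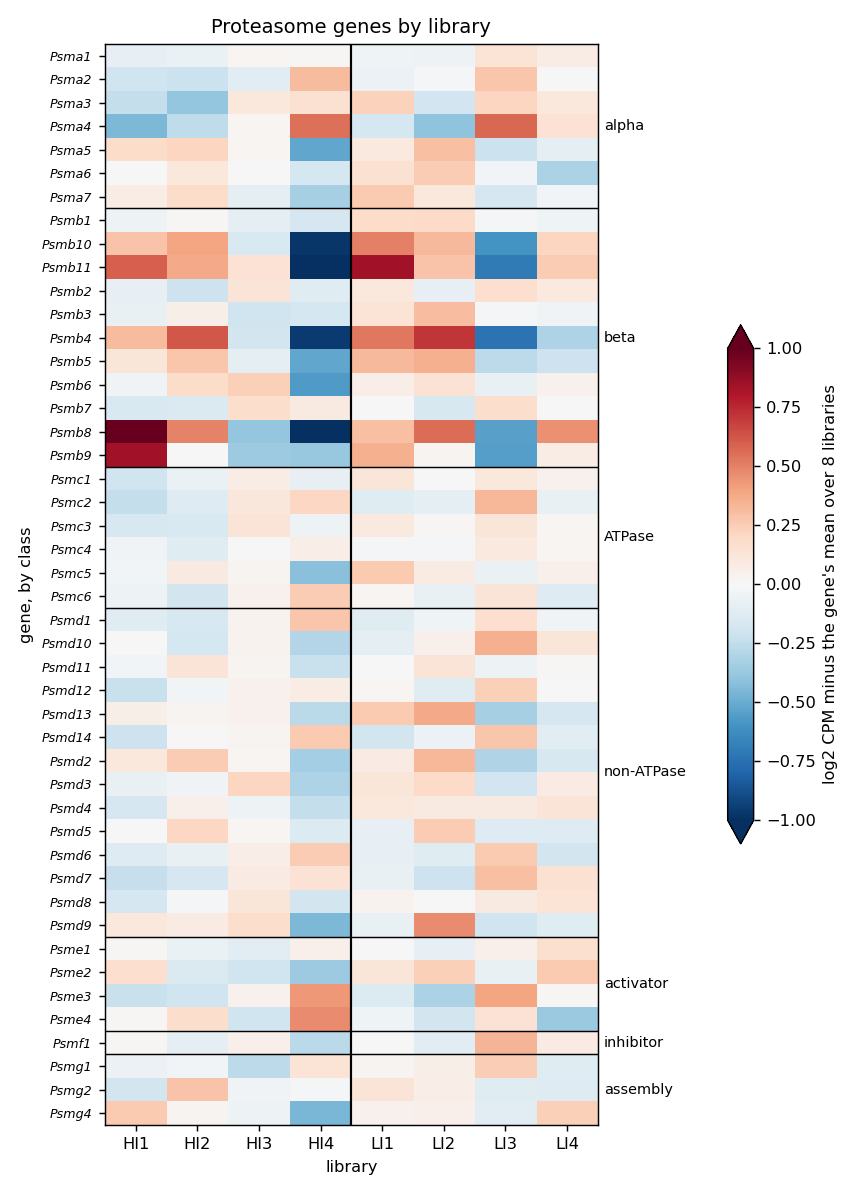
Log2 CPM of each of the 46 proteasome genes (rows, by class) in each library (columns), as the deviation from the gene's mean over 8 libraries, with colours saturating at 1 in either direction. HI4 and LI3 both hold red and blue rows, with Psma4 at 0.55 and 0.57 and Psmb4 at -0.96 and -0.74, while other rows differ in sign between them, such as Psmd10 at -0.29 and 0.36.

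Class scores average signed deviations, so genes that move in opposite directions cancel within a class. The alpha score stayed between -0.10 and 0.11 over the 8 libraries, although in HI4 Psma4 stood at 0.55 and Psma5 at -0.52. Gene by gene, the median within-group SD of log2 CPM was 0.21 over alpha, 0.15 over Psmb1 to Psmb7 and 0.17 over regulatory genes. The score of the constitutive beta genes Psmb1 to Psmb7 was 0.01, 0.12, -0.0036 and -0.35 over HI1 to HI4, and 0.19, 0.21, -0.11 and -0.06 over LI1 to LI4. The score of Psmb8, Psmb9 and Psmb10 was 0.72, 0.30, -0.30 and -1.09 over HI1 to HI4, and 0.39, 0.30, -0.56 and 0.25 over LI1 to LI4. The regulatory score stayed between -0.09 and 0.06. Across the 46 genes the deviations in HI4 and LI3 had a Pearson correlation of 0.83, and 0.63 across all tested genes; both deviations are taken from a mean that holds the same libraries. These were the libraries with the least ribosomal RNA, and the part of RNA composition in the pattern was not tested. The Pearson correlation with log2 length over the 46 genes was 0.22 for the HI4 deviations and 0.08 for those of LI3.

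**Figure D5:**
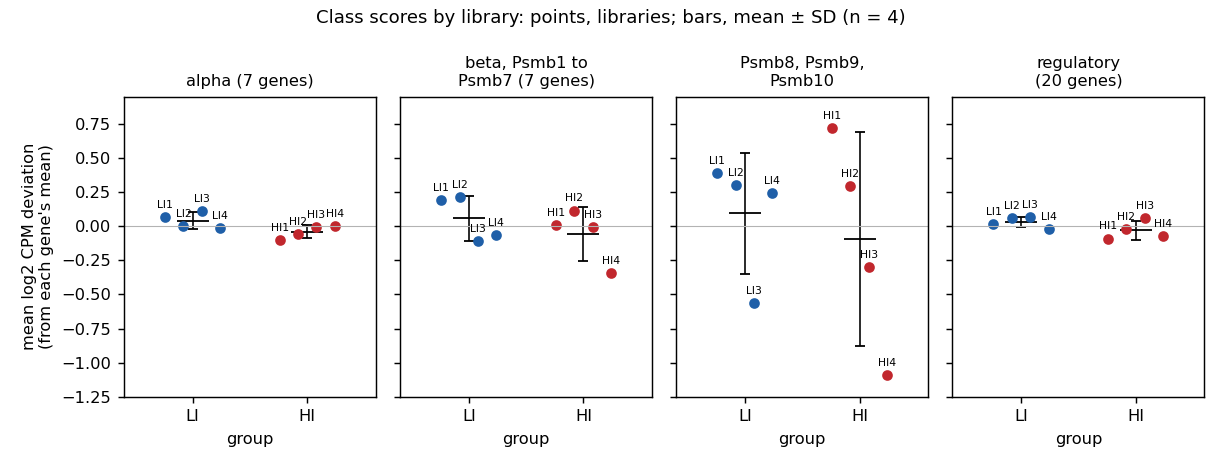
Mean deviation of log2 CPM (vertical axis) over alpha genes, Psmb1 to Psmb7, Psmb8 to Psmb10, and regulatory genes, one point per library for LI (blue) and HI (red), with mean ± SD (n = 4) as bars. The regulatory scores stay between -0.09 and 0.06, while the immunoproteasome scores reach from -1.09 in HI4 to 0.72 in HI1.

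Spread within groups varied from gene to gene. The within-group SD of log2 CPM had a median of 0.19 over the 46 genes, below the 0.27 of all tested genes, which include rarer ones. It was 0.07 for Psmc4, an ATPase, and 0.07 for Psma1, the lowest of the 46, and 0.98 for Psmb8 and 0.90 for Psmb11, the highest. Psmb4 came next at 0.69 although its level, 79.1 CPM per kilobase, was above the median of beta genes. Of the 1035 pairs among the 46 genes, 565 had a positive Pearson correlation over the 8 libraries and 470 a negative one, with a median of 0.13. Among 8311 genes with a mean count of 100 or more, those outside the proteasome were ranked by Pearson correlation with the mean proteasome score. The closest by log2 CPM included Atp5o, Fv1, Chtop and Atp5c1, at 0.98 to 0.99 over 8 libraries. They were picked as the highest of many correlations, and HI4 stood apart in that score at -0.19. A link between these genes and the proteasome was not tested.

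Genes that work with the proteasome also gave no call, as did all tested genes in edgeR's test. Of 19 proteasome-associated genes tested, 0 passed in edgeR's quasi-likelihood test (0 at an unadjusted p of 0.05, where 4.16% of all tested genes lay, and 0 by DESeq2, where 0.488% of genes with an adjusted p were called), with 10 below 0 and a median log2 fold change of -0.01. Usp14, a deubiquitinase bound to the regulatory particle, stood at 0.12 ± 0.13 (SE), Uchl5 at 0.07 ± 0.22, the ubiquitin receptor gene Adrm1 at -0.14 ± 0.12 and the assembly factor gene Pomp at -0.06 ± 0.14. Nfe2l2 stood at -0.05 ± 0.16. No gene with the symbol Nfe2l1 was among those in the deposited tables, so it was not analysed here. The smallest p in this list belonged to Ubr4, a ubiquitin ligase (0.21 ± 0.14), and Ddi2, the protease that activates Nfe2l1 (0.19 ± 0.13).

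Of 20 ubiquitin supply genes, 0 passed in edgeR's quasi-likelihood test (1 at an unadjusted p of 0.05, beside 4.16% of all tested genes, and 0 by DESeq2, beside 0.488%), with 11 below 0 and a median of -0.0034. Rps27a, which encodes ubiquitin fused to a ribosomal protein on a transcript of 549 bases, stood at -0.21 ± 0.12 (SE). Of 12 genes of interferon signalling and class I antigen presentation, 0 passed (0 at an unadjusted p of 0.05, beside 4.16% of all tested genes, and 0 by DESeq2, beside 0.488%), with 5 below 0 and a median of 0.02. B2m, the class I light chain, stood at -0.23 ± 0.22, the peptidase gene Erap1 at 0.17 ± 0.18 and the peptide transporter gene Tap1 at 0.02 ± 0.30.

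Other large complexes are given for comparison, and no test of the differences between complexes was made. The median log2 fold change was -0.23 over 80 cytosolic ribosomal protein genes (79 below 0; Rps15a -0.32 ± 0.09 and Rps12 -0.31 ± 0.11, SE), -0.15 over 71 respiratory chain genes (69 below 0; Ndufa4 -0.21 ± 0.09 and Atp5h -0.26 ± 0.11), -0.08 over the 46 proteasome genes and 0.02 over 8 chaperonin genes (4 below 0; Cct8 0.08 ± 0.09 and Cct2 0.07 ± 0.12). Their median transcript lengths ran in the same order, 564, 629, 1325.5 and 1944.5 bases. With the length trend removed the medians were -0.13, -0.05, -0.02 and 0.03.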

How the data were processed

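Medial prefrontal cortex RNA of 4 HI and 4 LI libraries was analysed from 1 deposited table per library, with groups taken from the sample titles. The deposited columns are expected counts, TPM, FPKM and transcript lengths, per the file headers. The submitters' processing notes list Bowtie2 2.1.0; which program quantified the reads, the genome build, the annotation and strandedness are not given in the sources here. The deposited FPKM values were not used. Per library, 10.8% to 11.4% of the deposited expected counts were not whole (tolerance 1e-09); they were rounded. Libraries were scaled by TMM and genes filtered by filterByExpr (minimum count 10, minimum total 15), leaving 11631 genes. HI and LI were compared by the quasi-likelihood test of edgeR 4.0.16 under R 4.3.3, with Benjamini-Hochberg adjustment over all tested genes and a threshold of 0.1, the alpha in the series' design text; Fisher's test, named there, was an alternative. The SE was taken from the log2 fold change and the F statistic (its size over the root of F), and 95% intervals use the fit's degrees of freedom. Log2 CPM used a prior count of 2. CPM per kilobase used the deposited effective length.

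DESeq2 1.42.0, limma 3.58.1 (voom, and log2 of the authors' TPM plus 1), other scalings and filters, a replicate block, ribosomal RNA covariates, length trends (linear or lowess) as offsets, and leaving out libraries were alternatives. The tests were checked on simulated data without the pattern shared by HI4 and LI3, so the check does not cover that pattern. Libraries within a group differed by more than sampling noise in every pair. The labels do not state separate animals, so p-values measure the spread between these libraries, which may be technical. The proteasome genes and all lists were chosen with earlier results of these data known. Genes given by value were the 6 active-site genes, the 3 with the smallest p in each class, the extremes in fold change and level of core and regulatory genes, and in each other list the 2 with the smallest p and a few chosen with the lists; Psma4, Psmb4, Psmc4, Psme1, Psme3 and Psma3l were added after their values were seen. Some genes that this rule names are not reported here. Of the 27 proteasome-associated symbols listed, 19 were in the tables. The 27 include synonyms, such as Shfm1 and Sem1, so they stand for fewer genes. Present too were 20 of 20 ubiquitin supply, 12 of 13 interferon and class I, and 8 of 8 chaperonin symbols.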

Additional observations from a re-analysis of the deposited data

Results flagged for a closer look

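A total of 74 groups of 4 libraries were searched for a library far from the others of its group. They covered 28 of the genes described by value, and the scores. Of these groups 5 stood out, where chance gives about 1 in 20. Psma2 stood out in both groups, with HI4 at 71.7 CPM against 49.8 to 53.4 CPM in the other HI libraries, and LI3 at 70.1 CPM against 55.3 to 57.7 CPM in the other LI libraries. The mean score over the 46 proteasome genes was -0.19 in HI4 against -0.01 to 0.02 in the other HI libraries. The length slope was 0.13 in HI4 against -0.01 to 0.01 in the other HI libraries. The share of Psmb8, Psmb9 and Psmb10 among the active-site genes was 3.02% in LI3 against 5.31% to 5.73% in the other LI libraries.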

How the results depend on the processing

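None of the 46 proteasome genes passed under any alternative except Fisher's test on summed counts, which ignores the spread between libraries and called 35. DESeq2 called 38 genes in all, a log2 ribosomal RNA share as covariate 440 and Fisher's test 6596, against 0 in edgeR's quasi-likelihood test. With that covariate the smallest adjusted p of a proteasome gene was 0.114 (Psmb4, log2 fold change -0.39), and over the other alternatives but Fisher's it lay at 0.677 or above. The covariate was added after seeing the data. Whether replicate numbers pair the samples was not settled by correlations between libraries. Those of same-numbered libraries were 0.22, 0.54, -0.05 and 0.06, and 1 of the 4 HI libraries correlated best with the LI library of its own number. HI4 and LI3 stood apart from the other libraries, so these correlations cannot exclude a pairing. With a replicate block 0 genes and 0 proteasome genes were called, 36 were lower in HI, and no call changed.

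Leaving out each library in turn gave 29 to 41 proteasome genes lower in HI, a median from -0.09 to -0.05, a core median from -0.13 to 0.01, a regulatory median from -0.10 to -0.04 and a core minus regulatory difference from -0.09 to 0.07. Single genes were checked in this way for 28 of those described by value, without Psmc4, Psme1 and Psme3 among others. Of the 28 genes, 12 changed sign without some 1 library, and their log2 fold changes then ran from -0.30 to 0.15 for Psma4, -0.35 to 0.14 for Psmb4, -0.22 to 0.028 for Psmb5, -0.16 to 0.085 for Psmb6, -0.074 to 0.051 for Psmb7, -0.65 to 0.26 for Psmb8, -0.30 to 0.27 for Psmb9, -0.39 to 0.012 for Psmb10, -0.47 to 0.12 for Psmb11, -0.025 to 0.17 for Psmd6, -0.065 to 0.092 for Psmg2 and -0.21 to 0.024 for Psmg4.

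Other changes of sign were small. Without HI4 and LI3 they were Psmb6 (0.048), Psmb7 (0.019) and Psmb8 (0.061). With the linear length trend removed they were Psmb6 (0.023), Psmb7 (0.071), Psma2 (0.0084), Psmg4 (0.021) and Psma4 (0.013), and with the lowess trend Psmb6 (0.010), Psmb7 (0.060), Psmg4 (0.0037) and Psma4 (0.0080). With the ribosomal RNA share as covariate they were Psmb7 (0.053), Psmg2 (-0.067) and Psma4 (0.096), and with its log2 Psmb7 (0.037), Psmb9 (-0.0052), Psmg2 (-0.018) and Psma4 (0.096). Fisher's test gave Psmg2 at -0.10 and Psmd6 at -0.040. The cause was not tested. Depth limits Psmb8, Psmb9 and Psmb11 most, which rest on few counts per library.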
